A study of Mus musculus with 12 samples.

Results

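The genes described here are 10 AP-1 and immediate early genes of the mouse, namely Jun, Junb, Jund, Fos, Fosb, Fosl1, Fosl2, Egr1, Atf3 and Ier2. They were taken by symbol from a fixed list, which was chosen with earlier results of these data known. All 10 were among the 30263 genes counted in total colon and all 10 were among the 17195 genes abundant enough to be tested there. Jun was the only one of the 10 among the 357 genes listed for CD8+ T cells.

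RNA sequencing compared mice labelled S1PR4 KO with mice labelled WT, all on the C57BL/6 background. S1PR4 binds the lipid sphingosine 1-phosphate and is known mainly from immune cells. Total colons, 3 labelled KO and 3 labelled WT, were frozen on day 84 of a colitis-associated tumor model. In this model the mice of both groups had received the carcinogen azoxymethane (AOM, 10 mg/kg) and dextran sulfate sodium (DSS, 0.5% in the drinking water), an agent that injures the colon lining, on days 1 to 6, 21 to 27 and 47 to 52. CD8+ T cells, 3 libraries labelled KO and 3 labelled WT, were sorted by flow cytometry from untreated PyMT mice, whose mammary tumors arise from a viral oncogene, once 1 tumor measured 1.5 cm. The labels give neither the construction of the KO allele nor the promoter that drives PyMT, and there was no colon without AOM and DSS. Since they also leave unsaid whether replicates are different animals, the p-values below speak for the spread among these samples and nothing wider.

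Jun and Fos proteins pair through leucine zippers to form AP-1, a transcription factor that binds DNA only as a dimer. Jun proteins can pair with one another, whereas Fos proteins need a Jun partner, and members differ in how strongly they activate transcription. Several of their genes belong to the immediate early class. Transcripts of this class appear within minutes of a growth factor, stress or injury without new protein synthesis and mostly decay soon afterwards. In the intestine AP-1 is known for its part in epithelial proliferation, wound repair and tumor growth.

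The bases just upstream of the transcription start are shown for 5 members, to set Fosb and Atf3, whose counts differed widely between colon libraries, beside Jun, Junb and Fos, whose counts differed little. Each line is the last 120 bases before the start, from RefSeq on GRCm38.p6, read 5′ to 3′ along the gene's strand. Capitals mark TGACG on either strand, the core of a cyclic AMP response element, and also TGACATCA in Jun, TATAAA in Fos and GCGGGGGCG, a form of the Egr1 site, in Fosb.
Jun, chr4:95052223-95052342, minus strand: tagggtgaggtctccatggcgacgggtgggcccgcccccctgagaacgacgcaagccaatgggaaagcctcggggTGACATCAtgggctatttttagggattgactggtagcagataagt
Junb, chr8:84978749-84978868, minus strand: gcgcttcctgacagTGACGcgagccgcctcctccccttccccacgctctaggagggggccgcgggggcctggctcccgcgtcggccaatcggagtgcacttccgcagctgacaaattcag
Fos, chr12:85473770-85473889, plus strand: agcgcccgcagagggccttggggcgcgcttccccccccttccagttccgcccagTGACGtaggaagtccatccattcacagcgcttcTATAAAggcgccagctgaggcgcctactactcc
Fosb, chr7:19310046-19310165, minus strand: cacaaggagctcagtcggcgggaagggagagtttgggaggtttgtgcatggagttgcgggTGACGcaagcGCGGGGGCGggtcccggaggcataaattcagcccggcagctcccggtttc
Atf3, chr1:191183334-191183453, minus strand: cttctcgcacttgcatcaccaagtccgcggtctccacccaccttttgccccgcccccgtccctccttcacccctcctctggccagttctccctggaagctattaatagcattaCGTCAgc
The letters TGACG stood in the 250 bases upstream of 4 of the 7 members whose windows were read, Junb, Fos, Fosb and Atf3, and in 17.8% of 32851 RefSeq promoters. They were shared by genes with wide and with narrow spread between libraries. TGACATCA, an AP-1-like letter string of the Jun promoter, stood in 2.93% of all windows, and TATAAA in 12.4%. GCGGGGGCG stood in Fosb and Fosl2 and in 2.57% of all windows. The AP-1 site TGANTCA, present in 6.75% of all windows, the full element TGACGTCA, present in 1.55%, the Egr1 site GCGTGGGCG, present in 0.536%, and the CArG box, present in 1.47%, were in none of the 7. TGACG is contained in TGACGTCA, and both strands were searched. Bases further upstream than 250 were not read, and the windows of Egr1, Fosl1 and Ier2 were not read at all. Absence from these windows therefore does not show that a gene lacks the site. For Jund, Atf3 and Fosl2 the RefSeq start used here lies apart from the outer gene bound given below.

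The colon libraries held 7304082 to 8652561 counts. S1pr4 itself was counted 154, 162 and 118 times in the libraries labelled KO, against 61, 47 and 25 times in those labelled WT, so it was not lower where the label says KO. Its log2 difference was 1.78 ± 0.34 (SE), with an adjusted p of 0.829 by edgeR and 0.0059 by DESeq2. Where along S1pr4 the reads fall is not visible in gene counts, and every direction below rests on the labels. Xist, the RNA of the inactive X chromosome, stood at 591 and 515 CPM (counts scaled to a common library size with TMM) in KO replicates 2 and 3 and at 545 CPM in WT replicate 1, and at no more than 6.75 CPM in KO replicate 1 and WT replicates 2 and 3. The Y-linked Ddx3y stood at 81.1 CPM in KO replicate 1 and at 63.3 and 68.6 CPM in WT replicates 2 and 3. Differences inside each of these library sets, Xist-high and Y-linked, are therefore given beside the pooled ones, although the first set holds 1 WT library and the second 1 KO library.

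None of the 10 genes passed the test between KO and WT colons. The edgeR quasi-likelihood test with Benjamini-Hochberg adjustment over all genes called 0 of the 10, at a background of 0 of 17195 genes (0%), and limma-voom also called 0 of the 10. At an unadjusted p under 0.05 edgeR called 0 of the 10, against 870 of 17195 genes (5.06%). DESeq2 called 0 of the 10, with a lowest adjusted p of 0.717 for Fosb, against 18 of 17173 genes (0.105%). Means were higher in KO for 4 of the 10 and lower for 6, and the median log2 difference was -0.01, against -0.005 over all tested genes, of which 51.0% had a lower mean in KO. The groups were apart, with no overlap of the 3 KO and 3 WT values, for Fosl2 alone, against 9.58% of all genes. In these colons fewer cells of a type and less RNA per cell cannot be told apart.

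**Figure D1:**
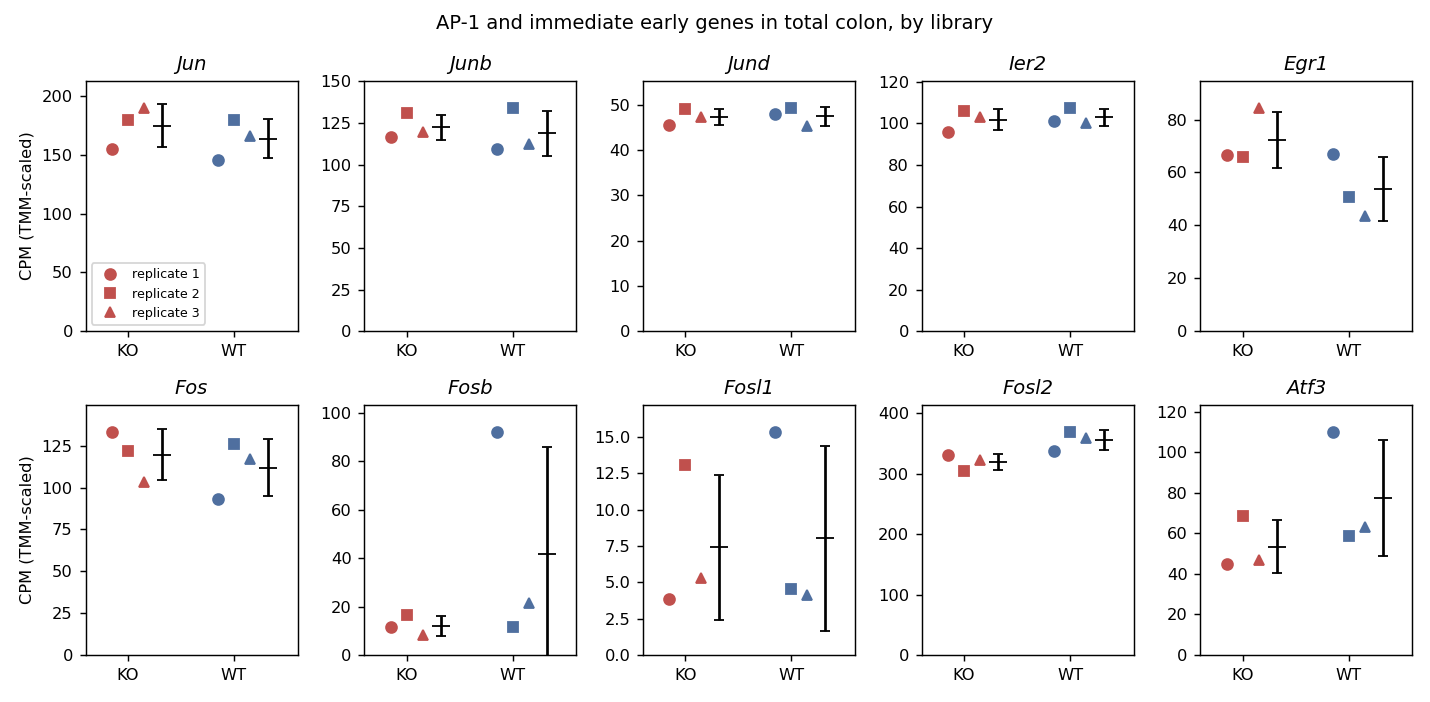
TMM-scaled CPM (vertical axes, each from 0) of the 10 genes in each total colon library, KO left of WT, with marker shapes for replicate numbers and bars for the mean and SD of 3 libraries (the lower arm for Fosb in WT ends below 0 and is cut by the axis). WT replicate 1 stood at 92.4 CPM for Fosb and 110 CPM for Atf3, above every other library, while Jund and Ier2 lay within narrow bands.

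Among the Jun proteins, Jun is the strong activator, and its gene has a single exon (GRCm38 chromosome 4, 95049034 to 95052222, minus strand). Jun had 155, 179 and 190 CPM in KO colons, against 146, 179 and 166 CPM in WT colons. The groups overlapped, with replicate 1 lowest in both. Jun averaged 175 ± 18.1 CPM in KO and 164 ± 16.9 CPM in WT (SD, n = 3 each), a log2 difference of 0.09 ± 0.11 (SE) that fell short of the threshold (edgeR adjusted p = 0.881). Within the Xist-high libraries the difference stood at 0.34, and within the Y-linked ones at -0.16. Jun shares 232 exon bases with the antisense gene Junos, and since counting by strand is not stated for these tables their reads cannot be told apart.

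Junb (chromosome 8, 84974484 to 84978718, minus strand) encodes a weaker activator that can hold back Jun, and had 116, 131 and 120 CPM in KO colons, against 110, 134 and 113 CPM in WT colons. Jund (chromosome 8, 70698949 to 70700616, plus strand, 1 exon), the most constantly expressed of the Jun genes, had 45.6, 49.1 and 47.3 CPM in KO colons, against 47.9, 49.4 and 45.3 CPM in WT colons. For both genes the groups overlapped throughout. The log2 differences were 0.04 ± 0.10 (SE) for Junb (edgeR adjusted p = 0.937) and -0.006 ± 0.085 (SE) for Jund (edgeR adjusted p = 0.991). Among Xist-high libraries they were 0.19 for Junb and 0.007 for Jund, and among Y-linked ones -0.08 for Junb and -0.05 for Jund. Junb shares 173 exon bases with Prdx2 and Jund 877 with Gm11175, both on the other strand.

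Fos (chromosome 12, 85473890 to 85477273, plus strand) encodes the founding Fos protein, whose transcript is short-lived. It had 134, 122 and 103 CPM in KO colons, against 93.1, 126 and 117 CPM in WT colons. The lowest value was in WT replicate 1, the library in which Fosb and Atf3 were highest. Fos averaged 120 ± 15.2 CPM in KO and 112 ± 17.0 CPM in WT (SD, n = 3 each), a log2 difference of 0.10 ± 0.14 (SE) that did not pass edgeR's test (adjusted p = 0.905). It was 0.27 among Xist-high libraries and 0.14 among Y-linked ones.

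Fosb (chromosome 7, 19302696 to 19310051, minus strand), whose splice forms include the stable protein known from chronically stimulated neurons, varied most. Its raw counts were 89, 125 and 60 in KO colons, against 781, 85 and 171 in WT colons. After scaling these were 11.4, 16.5 and 8.17 CPM in KO colons, against 92.4, 11.4 and 21.4 CPM in WT colons. WT replicate 1 stood far above the other 5, and WT replicate 2 lay inside the KO range. Fosb averaged 12.0 ± 4.22 CPM in KO and 41.7 ± 44.2 CPM in WT (SD, n = 3 each). The log2 difference of -1.80 ± 0.80 (SE) did not pass edgeR's test (adjusted p = 0.829), and without WT replicate 1 it was -0.44. Within the Xist-high libraries it was -2.98, and within the Y-linked ones -0.45.

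The ratio of Fosb to Fos CPM set the same library apart. It was 0.085, 0.136 and 0.079 in KO colons, against 0.992, 0.090 and 0.183 in WT colons. WT replicate 1, in which Fos was lowest, lay above the other 5 libraries, where the ratio did not exceed 0.183. The ratio is not per length and is read between libraries only.

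Fosl1 (chromosome 19, 5447547 to 5455946, plus strand) encodes Fra-1, which lacks the strong activation domain of Fos and is known from invasive epithelium. It had 3.83, 13.1 and 5.31 CPM in KO colons, against 15.4, 4.55 and 4.13 CPM in WT colons. Each group held 1 high library, KO replicate 2 and WT replicate 1, both Xist-high. The log2 difference was -0.12 ± 0.69 (SE; edgeR adjusted p = 0.976), and it turned to 0.78 without WT replicate 1 and was -0.81 without KO replicate 2. Among Xist-high libraries it was -0.87, and among Y-linked ones -0.17. Fosl1 shares 1163 exon bases with Ccdc85b on the other strand.

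Fosl2 (chromosome 5, 32135801 to 32157842, plus strand) encodes Fra-2, which is induced later than Fos. It had 331, 305 and 323 CPM in KO colons, against 338, 370 and 359 CPM in WT colons. Every KO value lay below every WT value, by a narrow margin between KO replicate 1 and WT replicate 1. Fosl2 averaged 319 ± 13.3 CPM in KO and 356 ± 16.2 CPM in WT (SD, n = 3 each). The log2 difference of -0.15 ± 0.06 (SE) did not pass edgeR's test (adjusted p = 0.829, unadjusted p = 0.051). It was -0.11 within the Xist-high libraries, -0.14 within the Y-linked ones, and between -0.18 and -0.12 with 1 library left out.

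Atf3 (chromosome 1, 191170296 to 191218039, minus strand) encodes a stress-induced factor of the same leucine zipper class that pairs with Jun proteins and often represses. It had 44.8, 68.6 and 46.7 CPM in KO colons, against 110, 58.8 and 63.0 CPM in WT colons. WT replicate 1 was again highest, and KO replicate 2 lay above the other 2 WT libraries. Atf3 averaged 53.4 ± 13.2 CPM in KO and 77.3 ± 28.5 CPM in WT (SD, n = 3 each). The log2 difference of -0.54 ± 0.29 (SE) did not pass edgeR's test (adjusted p = 0.829), and without WT replicate 1 it was -0.18. Among Xist-high libraries alone it was -0.96, and among the Y-linked ones -0.44.

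Egr1 (chromosome 18, 34859823 to 34864984, plus strand) encodes a zinc finger factor and Ier2 (chromosome 8, 84661331 to 84662852, minus strand, 1 exon) a nuclear protein, both classic immediate early products outside the AP-1 dimer. Egr1 had 66.6, 65.7 and 84.4 CPM in KO colons, against 67.1, 50.8 and 43.6 CPM in WT colons. WT replicate 1 stood within the KO range, and the other 2 WT libraries were lowest. Egr1 averaged 72.3 ± 10.5 CPM in KO and 53.8 ± 12.0 CPM in WT (SD, n = 3 each). Its log2 difference of 0.42 ± 0.19 (SE) did not pass edgeR's test (adjusted p = 0.829). It was 0.15 within the Xist-high libraries, 0.50 within the Y-linked ones, and between 0.30 and 0.63 with 1 library left out. Ier2 had 96.1, 106 and 103 CPM in KO colons, against 101, 108 and 100 CPM in WT colons, which overlapped, with a log2 difference of -0.02 ± 0.07 (SE; edgeR adjusted p = 0.970). For Ier2 the Xist-high libraries gave 0.05 and the Y-linked ones -0.11.

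**Figure D2:**
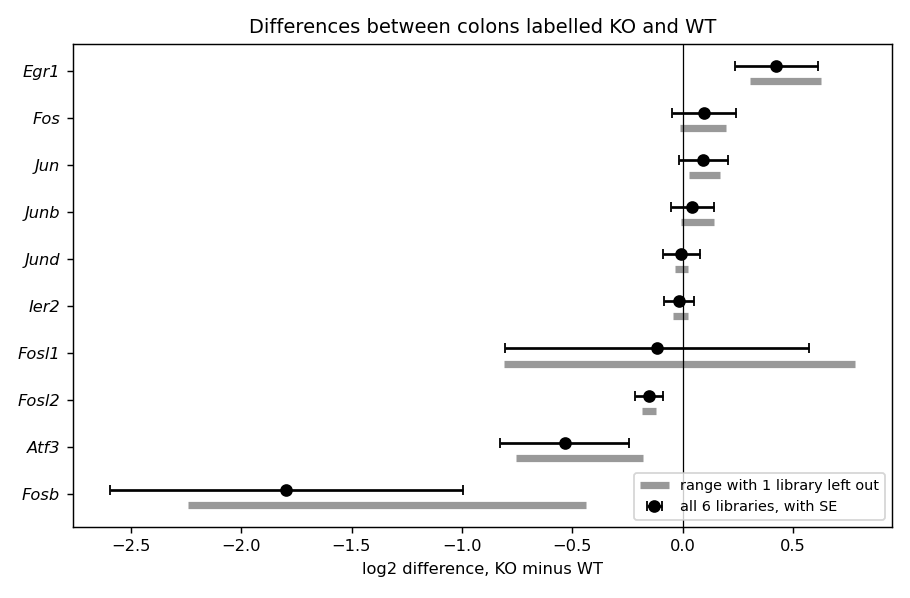
Log2 difference of KO over WT colons (horizontal axis) for each of the 10 genes, with points and thin bars for the edgeR estimate and its SE over all 6 libraries and grey bars for the range of estimates with 1 library left out. The grey bar runs from -2.24 to -0.44 for Fosb and across 0 for Fosl1, from -0.81 to 0.78, while that of Fosl2 runs from -0.18 to -0.12.

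Levels per kilobase of annotated exon, joined over all transcripts of a gene, put the 10 genes in order. No gene exceeded 0.973 counts per exon base in any colon library, and the part of such a limit in this order was not tested. Over the 6 colons Ier2 averaged 67.3 CPM per kb, and its lowest library lay above the highest of the next gene. Jun at 53.0, Junb at 52.4 and Fos at 49.2 CPM per kb followed, with ranges that overlapped. Fosl2 at 34.9, Atf3 at 30.3 and Jund at 28.4 CPM per kb came next. The range of Fosl2 lay wholly below that of Fos and wholly above that of Jund. Atf3 ran from 20.8 to 51.1 CPM per kb and overlapped both Fosl2 and Jund. In WT replicate 1 Atf3 stood at 51.1 CPM per kb, above Jun at 45.7, Junb at 47.6 and Fos at 39.6. Egr1 at 14.1, Fosb at 4.30 and Fosl1 at 3.79 CPM per kb were lowest, and the ranges of these neighbours overlapped, since Fosb reached 14.8 CPM per kb in WT replicate 1.

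The shares of the Jun and Fos families in the AP-1 transcript pool overlapped between the groups, while the share of Fosl2 did not. Of the summed per-length level of the 7 Jun and Fos genes, Jun genes held 57.2%, 60.7% and 63.3% in KO colons, against 55.7%, 60.1% and 58.1% in WT colons. This gave 60.4 ± 3.05% in KO and 58.0 ± 2.16% in WT (SD, n = 3 each). The share of Fosb was 0.823%, 1.13% and 0.592% in KO colons, against 6.76%, 0.759% and 1.55% in WT colons. Fosb was thus a small part of the pool in every library, and largest in WT replicate 1. The share of Fosl2 was 15.5%, 13.4% and 15.1% in KO colons, against 16.0%, 15.9% and 16.8% in WT colons.

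The members differed in how far libraries lay apart, whatever their label. The highest colon library exceeded the lowest 11.3-fold for Fosb, 4.02-fold for Fosl1, 2.46-fold for Atf3 and 1.94-fold for Egr1. The other 6 genes ranged from 1.09-fold for Jund to 1.43-fold for Fos. The within-group SD of log2 CPM was 1.15 for Fosb, 0.973 for Fosl1, 0.424 for Atf3, 0.264 for Egr1 and 0.208 for Fos. It was 0.152 for Jun, 0.128 for Junb, 0.065 for Ier2, 0.063 for Fosl2 and 0.058 for Jund.

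These colon tables held at most 0.919 to 0.973 counts per annotated exon base in any library, and whether duplicate reads were removed is not stated. Among genes averaging 250 to 3000 counts, the median within-group SD of log2 CPM was 0.171 below 0.1 counts per base (2988 genes) and 0.0904 from 0.5 counts per base upwards (158 genes). Ier2 averaged 0.523 counts per base, Jun 0.411, Junb 0.406 and Fos 0.382, against 0.035 for Fosb and 0.030 for Fosl1. Atf3 reached 0.432 in WT replicate 1. Jun, Junb and Fos lay above the median spread of genes with like counts per base, and Ier2, Fosl2 and Jund below it. The part of counts per base in the narrow spread, the levels, the pool shares and the small KO to WT differences of the abundant members was not tested.

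**Figure D3:**
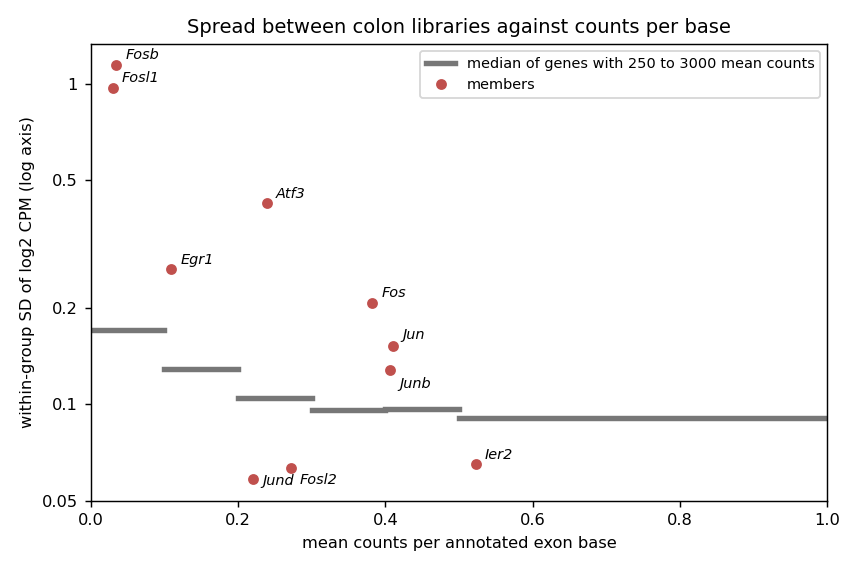
Within-group SD of log2 CPM over colon libraries (vertical log axis) against mean counts per annotated exon base (horizontal axis), with points for the 10 genes and grey lines for the median of all genes averaging 250 to 3000 counts in each range of counts per base. The median is 0.171 in the lowest range and 0.0904 in the highest, with Fosb at 1.15 and Fosl1 at 0.973, both of which average fewer than 250 counts, far above it and Jund at 0.058 below.

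WT replicate 1 held the highest value of 3 of the 10 genes (30.0%), Fosb, Fosl1 and Atf3, against 3141 of 17195 genes (18.3%). Fosb there was 8.13 times, Fosl1 3.38 times and Atf3 1.87 times the median of the other 5 colons. Jun at 0.813 times and Fos at 0.763 times were below it. The same library was highest for 15 of 39 other immediate early genes tested. Among these 15, named after their values were seen, Nr4a3, an orphan nuclear receptor, stood at 3.07 times, Arc, known from stimulated neurons, at 2.59 times and Egr3 at 2.09 times the median of the other 5.

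As a sum, markers of squamous epithelium and skeletal muscle were highest in this library. The summed level of 9 squamous epithelium and skeletal muscle markers was 46.0, 75.0 and 50.9 CPM in KO colons, against 467, 65.7 and 74.3 CPM in WT colons, and 5 of the 6 that were tested were highest in WT replicate 1. The remaining one, Acta1 of skeletal muscle, had 12.3, 17.9 and 11.2 CPM in KO colons, against 38.9, 33.8 and 42.4 CPM in WT colons. Its groups did not overlap, at a log2 difference of -1.48 ± 0.21 (SE). DESeq2 called Acta1 (adjusted p = 1.74e-05) and edgeR did not (adjusted p = 0.829). Krt10, a keratin of the outer epidermis, had 6.51, 8.73 and 8.44 CPM in KO colons, against 101, 9.23 and 7.63 CPM in WT colons. Krt5, which the filter left untested, was counted 3, 1 and 2 times in KO colons, against 1054, 1 and 1 times in WT colons. Of the smooth muscle markers 6 of 10 and of the fibroblast markers 6 of 8 were highest in WT replicate 1, against 18.3% of all genes. Summed smooth muscle markers ran from 1241 to 2333 CPM in KO and from 1971 to 2627 CPM in WT, and fibroblast markers from 1010 to 1549 CPM in KO and from 1109 to 1606 CPM in WT. No marker of these 3 lists was at 0 in every library. Their part in the values of Fosb, Fosl1 and Atf3 was not tested. Epithelial markers, which define the colon lining, summed to 1901, 2052 and 1927 CPM in KO colons, against 1733, 2083 and 1921 CPM in WT colons. The lowest sum was that of WT replicate 1. Cdx2 of this list had 126, 161 and 115 CPM in KO colons, against 44.9, 162 and 120 CPM in WT colons. The part of epithelium was not tested either.

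KO replicates 2 and 3 held other high values. Of all tested genes, 13.4% in KO replicate 3, 8.02% in KO replicate 2 and 7.42% in WT replicate 1 lay more than 2-fold from the median of the other 5 libraries, the highest shares of the 6. KO replicate 3 held the highest Jun and Egr1, and also the highest Phlda1 at 68.2 CPM and Gadd45g at 51.6 CPM. KO replicate 2 held the highest Ptgs2, the inducible cyclooxygenase, at 57.0 CPM, against 31.0 CPM in WT replicate 1, and the highest Socs3, a feedback inhibitor of cytokine signalling, at 115 CPM, beside the second highest Fosl1 and Atf3. Summed over 8 neutrophil markers, the level was 70.6, 137 and 147 CPM in KO colons, against 111, 72.8 and 63.8 CPM in WT colons. The marker Ly6g had 51.6 to 56.2 CPM in KO and 57.8 to 64.0 CPM in WT and was most of the sum in several libraries. Without it, a choice made after its values were seen, the other 7 summed to 14.4, 82.7 and 95.9 CPM in KO colons, against 47.4, 13.1 and 6.00 CPM in WT colons. The part of these cells in the values was not tested.

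**Figure D4:**
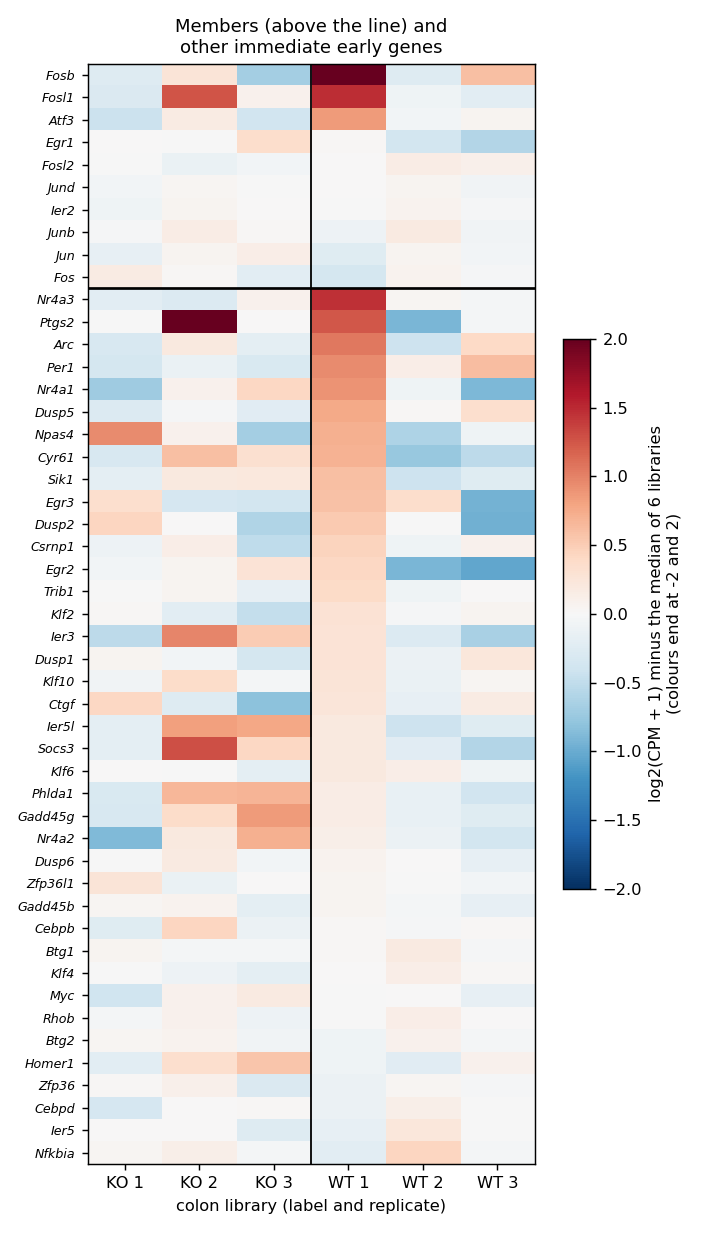
Log2(CPM + 1) of each gene minus its median over the 6 colon libraries (colour, ending at -2 and 2), with the 10 members above the line and 39 other immediate early genes below it, each block sorted by its value in WT replicate 1, and KO columns left of WT. Red cells in the WT 1 column mark Fosb, Fosl1 and Atf3 above the line and Nr4a3, Ptgs2, Arc and Per1 below it, while Jun, Junb, Jund, Fos and Ier2 are pale in every column.

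Genes around AP-1 were read from lists in the same fit, and none of their members passed edgeR's test either (lowest adjusted p in each list 0.829). Of 18 tested AP-1 partners and related zipper factors, 8 had a higher and 10 a lower mean in KO, and the median log2 difference was -0.05. Those with the smallest p were Batf2, which pairs with Jun, at -0.42 ± 0.11, and the small Maf factors Mafk at -0.21 ± 0.07, Mafg at 0.53 ± 0.22 and Maff at -0.32 ± 0.16 (log2 ± SE). Without WT replicate 1 Maff stood at -0.16. Mafg was 0.66 among Xist-high libraries and -0.01 among Y-linked ones, while the other 3 kept their sign in both. For 3 of the 18 the KO values all lay below the WT values, against 5.04% of all genes. Batf2 had 45.8, 44.3 and 40.2 CPM in KO colons, against 53.1, 56.2 and 64.8 CPM in WT colons, with no overlap.

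Of the 39 other immediate early genes tested, 20 had a higher and 19 a lower mean in KO. Their median log2 difference was 0.02. For 3 of the 39 the KO values all lay below the WT values, against 5.04% of all genes. Per1, a circadian clock gene that also responds to acute stimuli, had 46.2, 54.2 and 47.9 CPM in KO colons, against 116, 65.1 and 91.4 CPM in WT colons. The groups did not overlap and WT replicate 1 was highest. The log2 difference of Per1 was -0.88 ± 0.21 (SE; edgeR adjusted p = 0.829). Next by p were Dusp5, a phosphatase that inactivates ERK, at -0.59 ± 0.21, Klf4, a factor of differentiated epithelium, at -0.16 ± 0.07, and Ier5l at 0.70 ± 0.33 (log2 ± SE). Dusp5 stood at -0.36 without WT replicate 1 and Klf4 at -0.11 without KO replicate 3. Ier5l was 0.63 among Xist-high libraries and 0.13 among Y-linked ones, and Per1 was -1.18 in the first set and -0.74 in the second.

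Among 26 kinases and promoter-bound activators upstream of these genes, 9 had a higher and 17 a lower mean in KO, and the median log2 difference was -0.03. Srf, which binds the serum response element of Fos and Egr1, stood at -0.24 ± 0.10, and its coactivator Mkl1 at -0.32 ± 0.14. The p38 kinase gene Mapk14 stood at -0.13 ± 0.06 and Map2k3, which activates p38, at -0.13 ± 0.07 (log2 ± SE). None passed the test. Srf stood at -0.135 without WT replicate 1 and Mkl1 at -0.50 without KO replicate 1. Among Xist-high libraries Srf was -0.44 and Mkl1 -0.47, and among Y-linked ones Srf was -0.09 and Mkl1 -0.04.

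Among genes known as AP-1 targets, 17 of 22 tested had a higher mean in KO and 5 a lower one, with a median log2 difference of 0.37, and none passed the test. Cd44, a hyaluronan receptor, stood at 0.54 ± 0.24, Ccnd1, which encodes cyclin D1, at 0.23 ± 0.12, the neutrophil chemokine gene Cxcl1 at 1.98 ± 1.04 and Spp1, which encodes osteopontin, at 2.61 ± 1.41 (log2 ± SE). For Spp1 and Ccnd1 the direction turned between the library sets. Spp1 was 2.09 among Xist-high libraries and -1.86 among Y-linked ones, and Ccnd1 was 0.32 in the first set and -0.03 in the second. Cd44 was 0.56 among Xist-high libraries and 0.06 among Y-linked ones, and Cxcl1 was 1.55 in the first set and 0.30 in the second. Over all alternatives Spp1 ran from 0.67 to 3.77, and Cxcl1 stood at 1.32 without KO replicate 2 and Ccnd1 at 0.34 without KO replicate 1. Spp1 had 0.383, 31.9 and 47.9 CPM in KO colons, against 9.11, 2.94 and 1.00 CPM in WT colons. The summed list stood at 612, 1296 and 830 CPM in KO colons, against 936, 666 and 646 CPM in WT colons, so the lowest of the 6 values was a KO library and the highest was KO replicate 2. The 2 high KO libraries are the Xist-high ones and also those with the higher neutrophil marker sums, and the part of either was not tested.

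Heat shock genes, which respond to protein damage, were also read. Of 14, 5 had a higher and 9 a lower mean in KO, and the median log2 difference was -0.09. Hspa1b stood at -0.89 ± 0.24 and Hspa1a at -0.89 ± 0.44, and since these copies are nearly identical the split of reads between them is uncertain. Bag3 stood at -0.22 ± 0.09 and Dnajb1 at -0.18 ± 0.13 (log2 ± SE). Without WT replicate 3 Hspa1b stood at -0.57, Hspa1a at -0.36 and Dnajb1 at -0.10, and without KO replicate 1 Dnajb1 stood at -0.06. Dnajb1 was 0.08 among Xist-high libraries and -0.53 among Y-linked ones. Of the 14, 1 was highest in WT replicate 1, the library with the high Fosb and Atf3.

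The mean standardised log2 CPM of the 10 members was -0.51, 0.41 and -0.09 in KO colons, against 0.13, 0.42 and -0.37 in WT colons. It set neither group apart. The genes outside the lists that followed it most closely over the 6 libraries, as a description only, were Wdr45 and Nectin2 at a Pearson r of 0.98, Rpl36 at 0.98, and Perp, Pex13 and Rpp38 at 0.97. The 6 points share the scaling of their libraries.

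In CD8+ T cells sorted from PyMT tumors, Jun took a larger share of the listed counts in KO than in WT libraries, but its raw counts were lower and it did not pass the main test. The CD8 tables listed 357 genes whose selection is not stated, and counts over them summed to 26702, 17721 and 17407 in KO libraries, against 57721, 183504 and 44811 in WT libraries. These sums are not depths. Jun was counted 2575, 2269 and 2079 times in KO libraries, against 3321, 10427 and 4211 times in WT libraries. It was the most counted listed gene in all 6.

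As a share of the listed counts, Jun made up 9.64%, 12.8% and 11.9% in KO libraries, against 5.75%, 5.68% and 9.40% in WT libraries. The groups did not overlap, but KO replicate 1 and WT replicate 3 lay close together. On TMM-scaled values Jun did not overlap either, and there 47 of the 352 tested genes (13.4%) were higher in KO without overlap. After TMM scaling over the listed genes the log2 difference was 1.05 ± 0.39 (SE). This fell short of the threshold (edgeR quasi-likelihood test, adjusted p = 0.120), and edgeR called 9 of the 352 genes (2.56%). DESeq2 called it (adjusted p = 0.0468), as 1 of 18 genes of the 352 (5.11%), and edgeR called it without WT replicate 3 (1.33, adjusted p = 0.0401). With no scaling between libraries the difference was -1.38 (edgeR adjusted p = 0.0325), so its direction depends on how the libraries are scaled over a table that lists part of the genes.

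**Figure D5:**
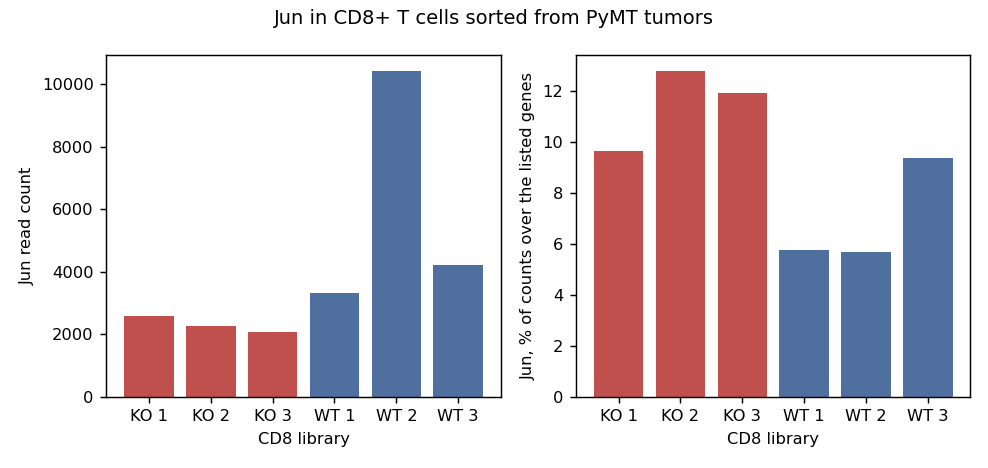
Jun in each library of sorted CD8+ T cells, KO left of WT, as raw read counts (left) and as a percentage of the counts over the 357 listed genes (right), 1 bar per library. Counts of 2079 to 2575 in KO lie below those of 3321 to 10427 in WT, while shares of 9.64% to 12.8% in KO lie above those of 5.68% to 9.40% in WT.

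Of the genes in the lists around AP-1, 9 others were in the CD8 tables and none passed edgeR's test. Trib1, a pseudokinase induced early, stood at 1.03 ± 0.37 (log2 ± SE, edgeR adjusted p = 0.116) and Creb5, a Jun partner, at 0.56 ± 0.25 (edgeR adjusted p = 0.201), both without overlap of the groups. Ier3, another immediate early gene, stood at 0.29, the zipper factor gene Cebpd at 0.13, Phlda1 at -0.25 and the matrix protein gene Cyr61 at -0.15 (log2). The p38 family gene Mapk13 stood at -0.38, the EGF receptor ligand gene Areg at -0.24 and Sprr1a, of the squamous cell envelope, at -0.04 (log2). None of the 8 T cell markers was among the listed genes, so the sorted cell type could not be checked. The epithelial marker Epcam was listed, with 513, 338 and 425 counts in KO libraries, against 778, 3187 and 1015 in WT libraries, and a log2 difference of 0.56 ± 0.34 (SE). Of the other markers of non-T cells listed, Cldn7 of epithelium stood at -0.20 and Sox10, taken from the colon neuron and glia list, at -0.07 (log2). Kdr of endothelium stood at -1.13 and Lalba of mammary epithelium at -1.25 (log2), and none of these markers passed edgeR's test. For Kdr and Lalba the KO values all lay below the WT values, as for 42 of the 352 tested genes. Their part in the Jun values was not tested.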

How the data were processed

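The deposited tables hold raw, whole-number read counts for each Ensembl gene, per the file headers. The submitters' processing notes name the tools STAR, TopHat2, RSEM, HTSeq and DESeq2, and GRCm38 (mm10) as build, without the role of each. Duplicate removal and strand use in counting are not given in the sources used here. Colon and CD8 libraries were prepared differently, per the labels, so each was fitted on its own.

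The robust quasi-likelihood F test of edgeR 4.0.16 was run in R 4.3.3 after filterByExpr and TMM scaling. Benjamini-Hochberg adjustment covered all tested genes, with a threshold of 0.05. DESeq2 1.42.0 and limma 3.58.1 voom with quality weights were alternatives. Errors cover the spread between these samples and counting only, as reads carry no molecular identifiers. Exon lengths came from GENCODE vM21. The fits were tested on simulated data.

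The members and lists were chosen with earlier results of these data known. Named genes are S1pr4, the 10 members, the 4 genes of each list around AP-1 with the smallest p in colon, all genes of those lists in the CD8 tables, the 6 colon genes most like the members' mean, and Xist and Ddx3y. Others are named after their values were seen. Replicates were compared for repeats, and the closest pair differed 2.71 times as much as sampling alone allows (chi-square over its degrees of freedom).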

Additional observations from a re-analysis of the deposited data

How the results depend on the processing

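All 10 members stayed short of the threshold in colon under each alternative, and 123 of 140 recomputed member differences kept their sign. The rest were near 0 or belong to Fosl1. With total counts as the only scaling Ier2 stood at 0.014 and Jund at 0.023, and with limma-voom Ier2 at 0.031, Jund at 0.051 and Fosl1 at 0.85 (log2). With 1 library left out Fos ran from -0.011 to 0.20, Junb from -0.0080 to 0.14, Ier2 from -0.045 to 0.022, Jund from -0.034 to 0.022 and Fosl1 from -0.81 to 0.78. DESeq2 called 18 colon genes and edgeR 0. In CD8 cells edgeR called 9 genes, 5 with DESeq2 size factors, 24 with total counts only, 4 at a mean of at least 50 counts, 325 with no scaling, an alternative chosen after seeing the data, and 2 to 19 with 1 library left out, while DESeq2 called 18. Of the members and other list genes in CD8 cells, edgeR called 0, DESeq2 1, edgeR with no scaling 9, and 0 to 1 with 1 library left out. Jun in CD8 cells stood at 1.05, at 1.03 by DESeq2, at -1.38 with no scaling, and from 0.87 to 1.33 with 1 library left out. With no scaling Creb5 stood at -1.97, Trib1 at -1.28, Ier3 at -2.29 and Cebpd at -2.28, and with total counts only Ier3 at -0.055 and Cebpd at -0.18. With 1 library left out Ier3 ran from -0.12 to 0.50, Cebpd from -0.046 to 0.27, Areg from -0.62 to 0.27 and Sprr1a from -0.43 to 0.34. The cause of these shifts was not tested.

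Deviations of same-numbered KO and WT libraries correlated at -0.06, 0.21 and -0.23 in colon and at -0.03, -0.09 and 0.20 in CD8 cells. Those of libraries with other numbers ran from -0.25 to 0.34 in colon and from -0.26 to 0.30 in CD8 cells. With 3 libraries a group, these values cannot settle whether the replicate numbers pair the samples. With the replicate number as a block edgeR called 0 colon genes, 12 CD8 genes and 0 of the members, and Jun in CD8 cells stood at 1.08. Depth limits Fosl1 most, with 30 to 130 counts a library.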
